A study of Homo sapiens with 24 samples.

Results

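The SLC39 genes encode the ZIP family of metal transporters, and 10 of them were followed here in 4 lines of T-ALL, the T lineage form of acute lymphoblastic leukaemia in humans: SLC39A1, SLC39A3, SLC39A4, SLC39A6, SLC39A8, SLC39A9, SLC39A10, SLC39A11, SLC39A13 and SLC39A14. They were taken by name, without SLC39A7, from 19775 genes that had a probe set of their own, and for each gene the brightest probe set by its mean on the 24 arrays was read. All 10 also passed the filter on low values (log2 4 or more on at least 3 arrays), as did 10661 genes in all. The established lines RPMI-8402, TALL-1, P12-ICHIKAWA and SUPT11 were exposed for 16 h to the compound NVS-ZP7-3 or to the solvent DMSO alone. DMSO was at 0.5% in both arms, and each of the 8 groups had 3 arrays. The dose of the compound is not given in the labels, and each line stands for 1 leukaemia. It is not stated that the 3 arrays of a group came from separate cultures, so errors and p-values measure how far these arrays lie apart, and that spread may be technical.

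ZIP proteins carry zinc into the cytosol, either from outside the cell or out of organelles, and some also carry manganese or iron. The SLC30 (ZnT) family works in the opposite direction and moves zinc out of the cytosol. Metallothioneins bind cytosolic zinc, and the zinc-sensing transcription factor MTF1 acts on the metal response elements of their genes. Compounds of the NVS-ZP7 series are known as inhibitors of SLC39A7 (ZIP7), the ZIP protein that sets zinc free from stores in the endoplasmic reticulum (ER), and the comparison asks how the remaining ZIP genes stood with and without such a compound.

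Of the 10 ZIP genes, 5 were called in TALL-1 and 5 in RPMI-8402, shares near those of all tested genes (41.9 and 36.6%), and none was called in SUPT11 or P12-ICHIKAWA (1.76 and 7.89% of all tested genes). SLC39A14 rose and SLC39A10 and SLC39A4 fell in both TALL-1 and RPMI-8402. In TALL-1, however, SLC39A4 was dim and its treated and DMSO arrays overlapped. SLC39A11 and SLC39A9 rose in TALL-1, and SLC39A8 and SLC39A13 rose in RPMI-8402. The widest changes were 1.85-fold higher for SLC39A11 in TALL-1 and 3.04-fold lower for SLC39A4 in RPMI-8402.

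Of the 10 members, 8 had a promoter window in the RefSeq sequence table of GRCh38.p14, which runs from 250 bases before to 50 bases after an annotated transcription start. SLC39A4 and SLC39A14 had no window in that table. The 8 genes had 14 windows, since some have several starts. Both strands were searched for 4 motifs, with no overlap between them in any member window: the metal response element core (MRE, TGCACNC or TGCGCNC), the ER stress element (ERSE, CCAAT and CCACG with 9 bases between them), the unfolded protein response element (UPRE, TGACGTGG) and the C/EBP-ATF element that ATF4 and CHOP bind (CARE, TGATGNAA). An MRE core lay in 6 of the 14 windows, and in 29.6% of all 35116 windows of that length. UPRE and CARE each matched 1 window (0.729% and 3.62% of all windows), and ERSE matched none of the 14 (0.0769% of all). The windows of called members that held a match are shown from 5′ to 3′, with the matched letters in capitals.
SLC39A10 downstream start, chr2:195656976-195657275, plus strand: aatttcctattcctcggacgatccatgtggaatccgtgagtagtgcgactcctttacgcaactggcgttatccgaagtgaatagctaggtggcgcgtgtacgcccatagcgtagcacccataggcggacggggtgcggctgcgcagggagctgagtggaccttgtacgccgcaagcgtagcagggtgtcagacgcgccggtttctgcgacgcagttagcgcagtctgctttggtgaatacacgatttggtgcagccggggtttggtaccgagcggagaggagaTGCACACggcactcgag
SLC39A8 upstream start, chr4:102345433-102345732, minus strand: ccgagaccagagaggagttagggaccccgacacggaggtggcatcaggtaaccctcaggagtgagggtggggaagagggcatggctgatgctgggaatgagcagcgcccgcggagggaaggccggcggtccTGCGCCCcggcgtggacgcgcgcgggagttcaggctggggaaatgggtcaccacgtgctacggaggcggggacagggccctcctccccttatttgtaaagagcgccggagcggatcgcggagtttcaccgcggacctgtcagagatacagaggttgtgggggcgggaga
SLC39A11, chr17:73092639-73092938, minus strand: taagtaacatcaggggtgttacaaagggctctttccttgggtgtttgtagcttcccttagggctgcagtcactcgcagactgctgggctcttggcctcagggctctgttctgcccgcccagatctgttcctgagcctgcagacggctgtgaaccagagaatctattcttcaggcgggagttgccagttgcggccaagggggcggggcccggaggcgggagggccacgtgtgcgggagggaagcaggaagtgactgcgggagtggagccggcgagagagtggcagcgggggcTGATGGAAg
SLC39A13 downstream start, chr11:47408340-47408639, plus strand: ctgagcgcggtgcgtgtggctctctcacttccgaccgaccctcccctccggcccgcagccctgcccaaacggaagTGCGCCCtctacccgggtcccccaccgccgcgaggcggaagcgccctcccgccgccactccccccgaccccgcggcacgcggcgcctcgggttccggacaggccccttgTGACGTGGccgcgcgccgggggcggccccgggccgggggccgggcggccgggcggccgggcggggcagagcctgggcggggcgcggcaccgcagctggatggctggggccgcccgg
In SLC39A10 the capitals mark an MRE core that starts at base 34 after the start site. In SLC39A8 they mark an MRE core at base -119. In SLC39A11 they mark a CARE match at base 42, and in SLC39A13 an MRE core at base -175 followed by a UPRE match at base -66. A match shows that the letters are there and says nothing about binding in these cells.

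**Figure D1:**
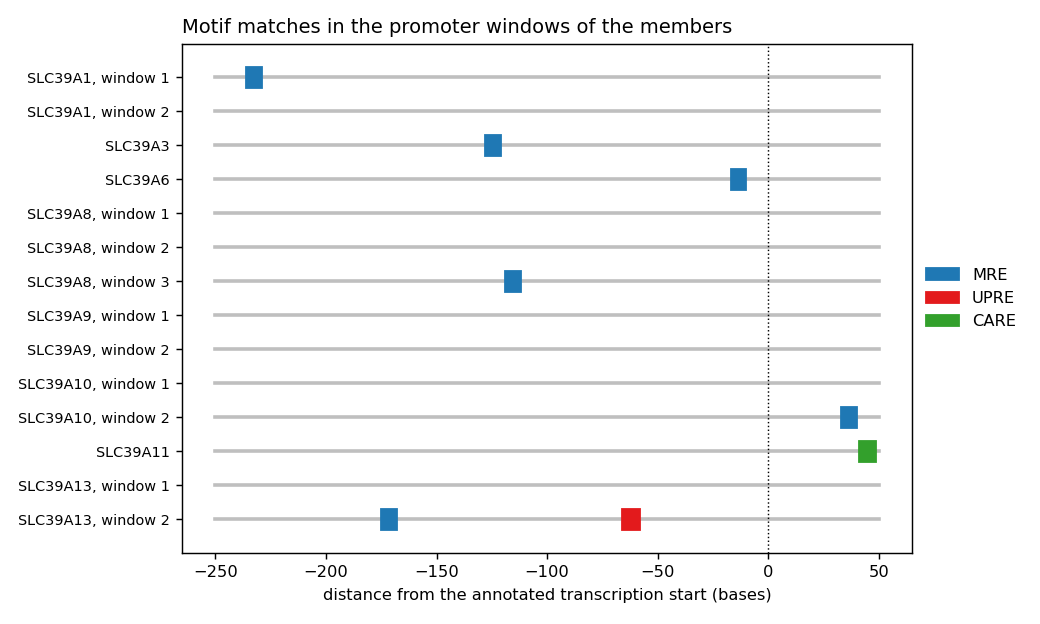
Motif matches in the 14 promoter windows of the 8 members with an entry; the horizontal axis is the distance from the annotated transcription start in bases, grey lines are windows and coloured boxes are matches on either strand. MRE cores appear in 6 windows, and UPRE and CARE in 1 each.

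The arrays give log2 expression after GCRMA, with a lowest value (floor) of 2.18, and 52.4 to 53.9% of probe sets per array were within 0.1 of that floor. Some probe sets repeated a value of their own above the floor, such as PTCRA at 4.06 on several arrays. A level above 2.18 is thus not in itself detection. Upper quartiles were 8.54 to 8.65, and arrays of a group correlated at 0.993 to 0.998 across genes, which are not independent replicates. Of 10 listed T lineage markers, all 10 were at log2 4 or more on the 3 DMSO arrays in RPMI-8402, 8 in TALL-1 and P12-ICHIKAWA and 7 in SUPT11. On those RPMI-8402 arrays PTCRA read 4.06 and CD7 5.45, levels that repeat between arrays and need not show expression. PTCRA was also among the 8 in P12-ICHIKAWA, at 4.07, 4.77 and 4.17. The summed level of the 10 genes was lower with NVS-ZP7-3 than with DMSO, without overlap, in all 4 lines. It was 15.69 to 15.79 against 16.11 to 16.21 in TALL-1 and 16.20 to 16.22 against 16.32 to 16.33 in RPMI-8402. In SUPT11 it was 15.60 to 15.63 against 15.64 to 15.70, and in P12-ICHIKAWA 16.36 to 16.38 against 16.38 to 16.45. In P12-ICHIKAWA the highest treated sum was 16.376 and the lowest DMSO sum 16.382. The sum is dominated by the brightest genes, and listed genes such as DNTT in RPMI-8402 and CD3E in P12-ICHIKAWA were higher with treatment. Among all tested genes, 16.6% (SUPT11) to 49.2% (RPMI-8402) lacked overlap in either direction. The part of the lower sum in the changes of the members was not tested. The ACTB 3′ minus 5′ difference, which rises with RNA degradation, was raised on the treated arrays by 0.49 in TALL-1, by 0.30 in RPMI-8402 and by 0.048 and 0.044 in SUPT11 and P12-ICHIKAWA. Members whose change moved by over 1.5 times or lost its call with this difference as a covariate are given with that value. In TALL-1 the ACTB difference was 1.96 to 2.07 with DMSO and 2.40 to 2.62 with NVS-ZP7-3. In RPMI-8402 it was 2.06 to 2.20 and 2.29 to 2.60. The arms did not overlap in these lines, so the covariate cannot separate RNA quality from treatment there.

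By genes that are bright in another of the 4 lines, 3 arrays carried transcripts foreign to their line. On replicate 2 of TALL-1 with NVS-ZP7-3, 43 of 180 genes that lie at the floor in the line and are bright in another were raised by over 0.5. The same held for 15 of 108 on replicate 2 of SUPT11 with NVS-ZP7-3 and for 15 of 87 on DMSO replicate 3 of RPMI-8402, while the remaining arrays had at most 2. Only genes at the floor on most arrays of a line were counted, so a transcript raised on all 3 arrays of a group was not seen. RAG1 in SUPT11, for one, was 2.18 on the DMSO arrays and 4.73, 9.28 and 4.12 on the treated arrays. The count thus does not clear the remaining arrays. In P12-ICHIKAWA the levels of HBB, the beta globin gene, and LYZ, the lysozyme gene of myeloid cells, were higher with treatment. The summed level of the erythroid list (3 of 6 listed genes with a probe set, 2 of them, HBD and ALAS2, at the floor in both groups) was 8.01 to 11.45 there with NVS-ZP7-3 and 3.77 to 3.80 with DMSO, and that of the 6 myeloid genes was 6.09 to 8.13 against 4.78 to 4.94, with 5 of the 6 myeloid genes at the floor in both groups. The erythroid sums also ran from 3.77 to 8.01 in TALL-1 with NVS-ZP7-3 against 3.77 to 3.82 with DMSO, in SUPT11 from 3.77 to 10.61 against 3.77 to 3.81, and in RPMI-8402 from 8.67 to 12.99 against 3.82 to 14.68. With the level of HBB as a covariate 5 members were called in TALL-1, 5 in RPMI-8402 and 0 in the other lines. The same counts held without the 3 arrays and in the fit of all arrays. Other arrays also carried HBB or LYZ, so leaving out the 3 does not remove such transcripts.

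In TALL-1, 5 of 10 members were called (limma, Benjamini-Hochberg adjusted p below 0.05 over all tested genes), where 41.9% of all tested genes were. Of these, 3 members rose in TALL-1 and 2 fell, where 22.3% of all genes rose and 19.6% fell. In RPMI-8402, 5 of 10 members were called against 36.6% of all genes, 3 rising (15.1% of all genes) and 2 falling (21.5%). The treated and DMSO arrays did not overlap for 6 members in TALL-1 (48.8% of all genes) and for 6 in RPMI-8402 (49.2%). These shares are near their background, so the counts are no result about the ZIP genes as a family. In SUPT11 limma called 0 of 10, with 1.76% of all genes called (1.18% higher and 0.582% lower). In P12-ICHIKAWA limma called 0 of 10, with 7.89% of all genes called (4.91% higher and 2.98% lower). In each of these lines 0 members had an unadjusted limma p below 0.05. SLC39A9 in P12-ICHIKAWA came nearest, with an unadjusted limma p of 0.0501. The median size of the change over the members, without its sign, was 0.33 in TALL-1 and 0.41 in RPMI-8402, beside 0.20 and 0.18 over all tested genes, and 0.066 in SUPT11 and 0.076 in P12-ICHIKAWA, beside 0.062 and 0.094. On average over the 4 lines 5 members rose and 2 fell, 7 of 10, where 46.9% of all genes were called, 22.4% higher and 24.5% lower. Of these 7, SLC39A4, SLC39A10 and SLC39A14 were called in both TALL-1 and RPMI-8402. Each of the others was called in TALL-1 or RPMI-8402 alone, so the average is no change shared by the lines. The arrays average over the cells of a culture, so a lower RNA level per cell and fewer cells with that RNA cannot be told apart.

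**Figure D2:**
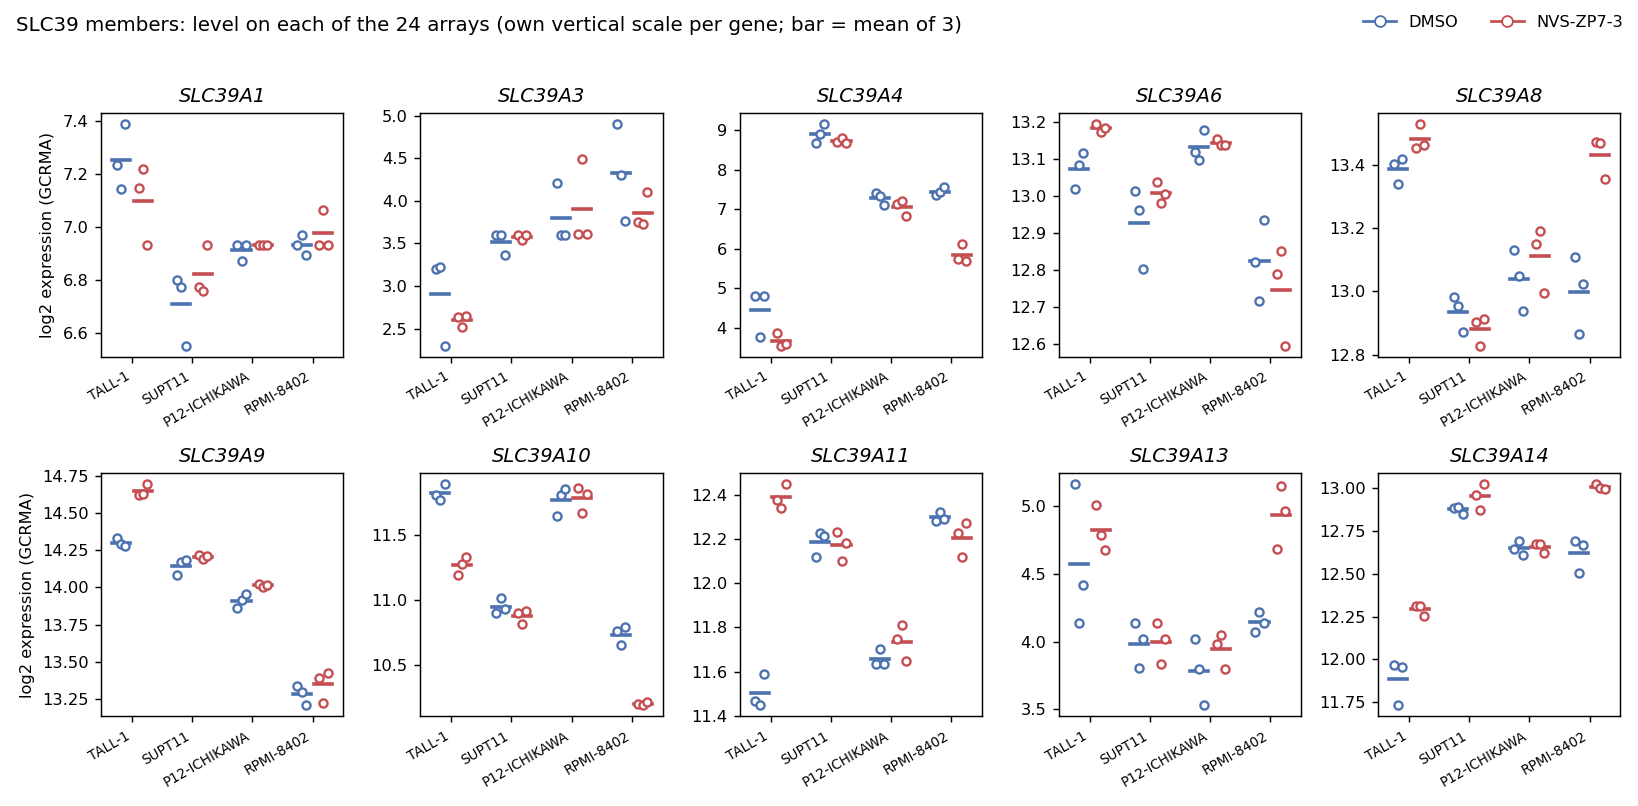
Log2 expression of the 10 SLC39 members on each of the 24 arrays, by line; open points are arrays, bars are means of 3, blue is DMSO and red is NVS-ZP7-3, and each gene has its own vertical scale, which does not start at 0. SLC39A10 and SLC39A14 separate by treatment in TALL-1 and RPMI-8402, and SLC39A4 stands 4.44 lower in TALL-1 than in SUPT11 with DMSO.

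SLC39A10 (probe set 225295_at) encodes ZIP10, a zinc importer of the plasma membrane that pairs with ZIP6 and whose gene is known to be held down by zinc through MTF1. Its 3 DMSO arrays in TALL-1 read 11.81, 11.77 and 11.89, and its 3 treated arrays 11.19, 11.28 and 11.33. In RPMI-8402 the DMSO arrays read 10.76, 10.65 and 10.79 and the treated arrays 10.20, 10.19 and 10.21. Every treated array lay below every DMSO array in both lines. The change was -0.56 ± 0.062 in TALL-1 (SE, 3 arrays per group; limma adjusted p = 7.86e-07), or 1.47-fold lower, and -0.53 ± 0.062 in RPMI-8402 (limma adjusted p = 2.13e-06), or 1.45-fold lower. With the ACTB 3′ minus 5′ difference as a covariate the change was -0.36 in TALL-1 and -0.41 in RPMI-8402, both still called (limma adjusted p = 0.00211 and 9.53e-05). In SUPT11 the arrays went from 10.90, 11.01 and 10.93 to 10.89, 10.82 and 10.91, and in P12-ICHIKAWA from 11.65, 11.81 and 11.85 to 11.86, 11.67 and 11.82, so the groups overlapped. The 95% intervals of the change there were -0.20 to 0.059 and -0.12 to 0.14. The changes differed among the lines (limma F test, adjusted p = 3.57e-05), and each line differed from the mean of the other 3: TALL-1 by -0.36 ± 0.072, RPMI-8402 by -0.33 ± 0.072, SUPT11 by 0.29 ± 0.072 and P12-ICHIKAWA by 0.40 ± 0.072 (limma adjusted p = 8.92e-04, 0.00366, 0.0103 and 0.00127). Such a difference from the other lines was called for 28.6% of all genes in TALL-1 and 18.5% in RPMI-8402. In SUPT11 it was called for 15.2% and in P12-ICHIKAWA for 8.38%. The means set against SUPT11 and P12-ICHIKAWA hold the falls of TALL-1 and RPMI-8402, so those differences are not separate responses.

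SLC39A6 (202088_at) encodes ZIP6, or LIV-1, the partner of ZIP10 in zinc uptake and a gene known from oestrogen-responsive breast cancer. It was not called in any line by its brightest probe set. The change was 0.11 ± 0.065 in TALL-1, where the treated arrays (13.19, 13.17 and 13.18) lay above the DMSO arrays (13.02, 13.08 and 13.12), and -0.079 ± 0.065 in RPMI-8402, where they overlapped. SUPT11 and P12-ICHIKAWA stood at 0.082 ± 0.065 and 0.012 ± 0.065. Its 3 other probe sets all passed the filter on every array and did not give 1 answer in RPMI-8402. There 1555460_a_at fell by 0.53 ± 0.12 on the log2 scale (8.38 to 7.85; limma adjusted p = 0.00233 over 20461 probe sets). The other pair of probe sets stood at -0.12 ± 0.064 and -0.24 ± 0.12 in RPMI-8402 and were not called, and the mean of all 4 fell by 0.24 (limma adjusted p = 0.00424). In TALL-1, SUPT11 and P12-ICHIKAWA none of the 4 probe sets of SLC39A6 was called.

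SLC39A4 (219215_s_at) encodes ZIP4, the zinc importer of the intestinal surface whose loss causes acrodermatitis enteropathica. In RPMI-8402 the DMSO arrays read 7.36, 7.43 and 7.55 and the treated arrays 5.74, 6.11 and 5.68. The groups were far apart, with a change of -1.60 ± 0.21 (limma adjusted p = 7.97e-06). The RPMI-8402 change differed from the mean of the other 3 lines by -1.20 ± 0.24 (limma adjusted p = 0.00171). In TALL-1 the gene was low throughout, at 4.81, 3.77 and 4.82 with DMSO and 3.88, 3.55 and 3.59 with NVS-ZP7-3. It fell by 0.79 ± 0.21 on the log2 scale (limma adjusted p = 0.00502), although DMSO replicate 2 lay below 1 treated array. That error is shared with the lines where the gene was brighter, whereas the SD of its TALL-1 DMSO arrays was 0.60. With the ACTB difference as a covariate the TALL-1 change was -1.19. In SUPT11, where the DMSO arrays were at 8.67, 8.90 and 9.15, and in P12-ICHIKAWA, where they were at 7.41, 7.35 and 7.10, the changes were -0.19 ± 0.21 and -0.23 ± 0.21 and were not called.

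SLC39A14 (212110_at) encodes ZIP14, an importer of zinc, iron and manganese whose gene is known to respond to interleukin 6 and to ER stress in liver. DMSO arrays in TALL-1 read 11.97, 11.73 and 11.96, and treated arrays 12.31, 12.31 and 12.25. In RPMI-8402 the values were 12.69, 12.50 and 12.67 with DMSO and 13.03, 13.00 and 13.00 with NVS-ZP7-3. No treated array overlapped a DMSO array in these lines. The rises were 0.41 ± 0.060 (limma adjusted p = 2.10e-05), or 1.33-fold, and 0.39 ± 0.060 (limma adjusted p = 5.35e-05), or 1.31-fold. In SUPT11 the change was 0.077 ± 0.060 and in P12-ICHIKAWA 0.0086 ± 0.060, neither called, and the 4 changes differed among lines (limma F test, adjusted p = 0.00123). The other probe sets of SLC39A14 lay near the floor, with highest values of 2.58 and 2.19, and bear no information on it. Averaging them with the brightest probe set gave 0.14 in TALL-1 and 0.13 in RPMI-8402, both called (limma adjusted p = 0.00498 and 0.00844).

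SLC39A8 (209267_s_at) encodes ZIP8, a carrier of zinc, manganese and other divalent metals that in T cells is known to release zinc from lysosomes. It rose in RPMI-8402, where the DMSO arrays read 13.11, 12.86 and 13.02 and the treated arrays 13.47, 13.47 and 13.36. The treated arrays were all higher, by 0.43 ± 0.066 (limma adjusted p = 4.52e-05), or 1.35-fold. Its 3 other probe sets that passed the filter rose in RPMI-8402 too, by 0.49 ± 0.061, 0.47 ± 0.074 and 0.48 ± 0.12 (limma adjusted p = 6.27e-06, 6.80e-05 and 0.00442 over all probe sets). In TALL-1 the change was 0.096 ± 0.066 and not called, although the treated arrays (13.45, 13.53 and 13.46) all lay above the DMSO arrays (13.40, 13.34 and 13.42). SUPT11 stood at -0.054 ± 0.066 and P12-ICHIKAWA at 0.073 ± 0.066. The RPMI-8402 change differed from the mean of the other 3 lines by 0.39 ± 0.076 (limma adjusted p = 0.00123), and that of SUPT11 by -0.25 ± 0.076 (limma adjusted p = 0.0305). The mean set against SUPT11 holds the RPMI-8402 rise, so the SUPT11 difference is not a separate response. Myeloid cells also express SLC39A8. On DMSO replicate 3 of RPMI-8402, the array with the highest LYZ (12.54), SLC39A8 was 13.02. LYZ on the other RPMI-8402 arrays was 4.28 and 2.18 with DMSO and 6.25, 4.91 and 9.88 with NVS-ZP7-3. Without the 3 arrays with foreign transcripts the rise of SLC39A8 in RPMI-8402 was 0.45. That fit keeps the treated array with LYZ at 9.88, and the part of myeloid transcripts in the rise was not tested.

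**Figure D3:**
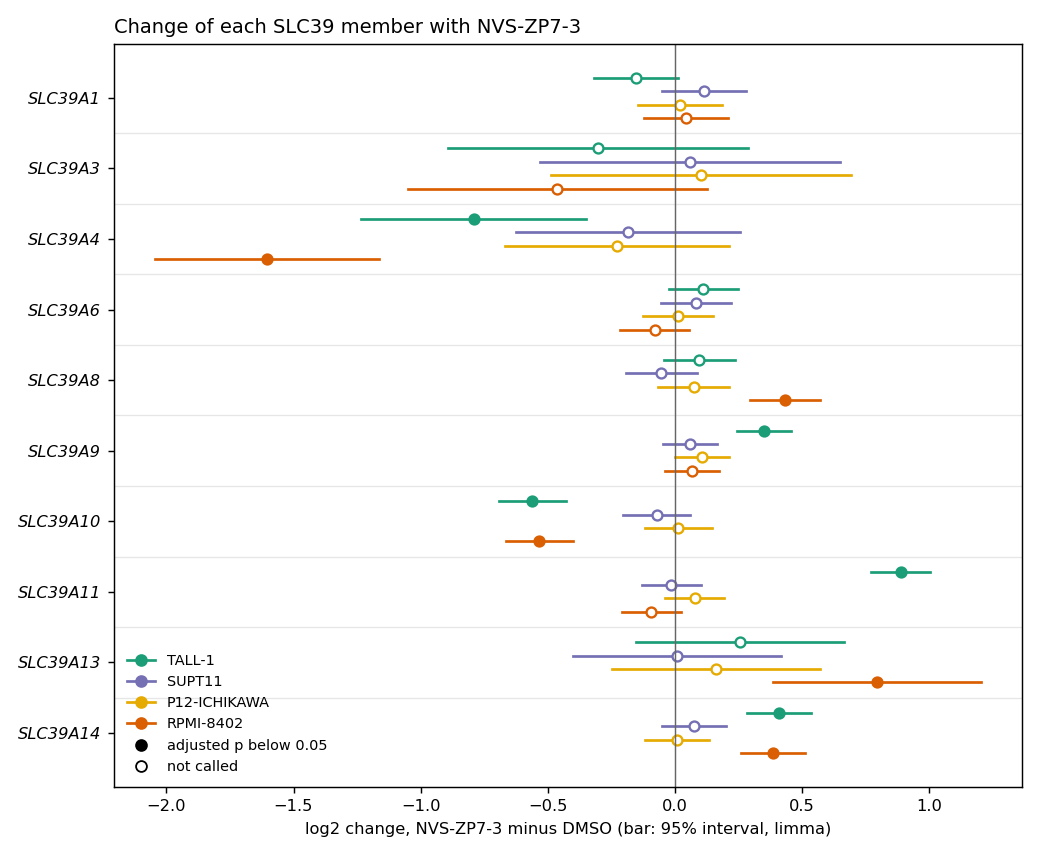
Log2 change of each SLC39 member, NVS-ZP7-3 minus DMSO, in the 4 lines; points are limma estimates from 3 arrays per group, bars are 95% intervals, and filled points have an adjusted p below 0.05. The filled points belong to TALL-1 and RPMI-8402, and the lowest is SLC39A4 in RPMI-8402 at -1.60.

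SLC39A11 (227046_at) encodes ZIP11, a member of the family found at the Golgi apparatus and the nucleus. In TALL-1 it went from 11.47, 11.45 and 11.59 with DMSO to 12.38, 12.34 and 12.45 with NVS-ZP7-3. The rise of 0.89 ± 0.055 (limma adjusted p = 4.30e-10) left a wide gap between the groups. In the remaining lines it was not called, with changes of -0.093 ± 0.055 in RPMI-8402, -0.014 ± 0.055 in SUPT11 and 0.078 ± 0.055 in P12-ICHIKAWA. The RPMI-8402 arrays were 12.28, 12.32 and 12.29 with DMSO and 12.23, 12.12 and 12.27 with NVS-ZP7-3, so that the treated arrays lay just below. The TALL-1 change differed from the mean of the other lines by 0.90 ± 0.064 (limma adjusted p = 8.63e-09). The changes of RPMI-8402 and SUPT11 differed from theirs by -0.41 ± 0.064 and -0.30 ± 0.064 (limma adjusted p = 1.65e-04 and 0.00292). The means set against these lines hold the TALL-1 rise, so those differences are not separate responses. Since TALL-1 had the lowest DMSO level of the 4 lines, its treated level of 12.39 ± 0.056 (SD, n = 3) came to lie beside the DMSO level of RPMI-8402, 12.30 ± 0.021.

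SLC39A9 (222445_at) encodes ZIP9, a zinc transporter of the Golgi apparatus and plasma membrane that has also been described as a membrane androgen receptor. In TALL-1 the arrays read 14.34, 14.29 and 14.28 with DMSO and 14.63, 14.63 and 14.70 with NVS-ZP7-3, without overlap. The rise was 0.35 ± 0.050 (limma adjusted p = 1.72e-05), or 1.27-fold. A dim probe set of the gene (217859_s_at) averaged 3.49 with DMSO and 4.84 with NVS-ZP7-3 in TALL-1. It passed the filter only through those 3 treated arrays, so it had to be high there and is given as a description. The 3 other lines had changes of 0.068 ± 0.050 in RPMI-8402, 0.058 ± 0.050 in SUPT11 and 0.11 ± 0.050 in P12-ICHIKAWA, none called. In SUPT11 (14.09, 14.17 and 14.19, then 14.22, 14.19 and 14.21) and P12-ICHIKAWA (13.86, 13.91 and 13.95, then 14.03, 14.00 and 14.01) the treated arrays were nevertheless all above the DMSO arrays. SLC39A9 was the member without overlap in these 2 lines, where 16.6 and 21.4% of all tested genes had none. Without treated replicate 2 the RPMI-8402 change was 0.13 and called (limma adjusted p = 0.0439).

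**Figure D4:**
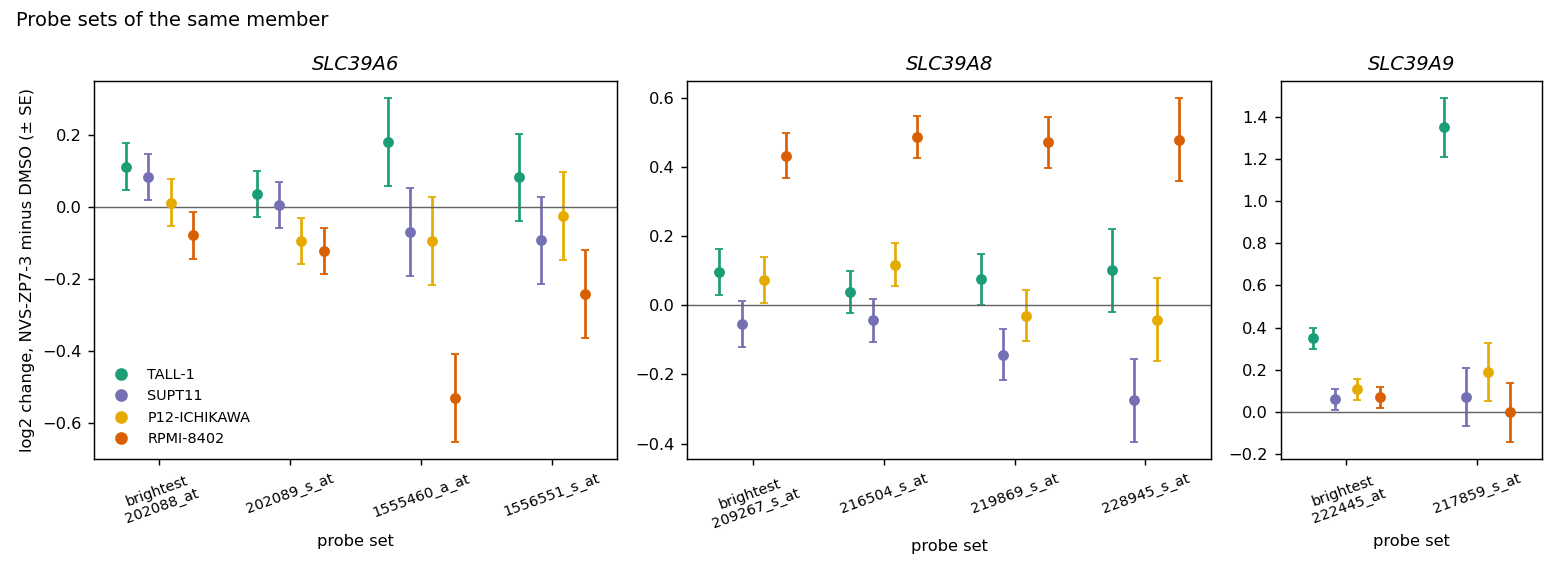
Log2 change, NVS-ZP7-3 minus DMSO, of each probe set of SLC39A6, SLC39A8 and SLC39A9 that passed the filter; points are estimates from 3 arrays per group and bars are the SE, from the fit over genes for the brightest probe set and over probe sets for the others. The 4 probe sets of SLC39A8 lie between 0.43 and 0.49 in RPMI-8402, whereas those of SLC39A6 range from -0.53 to -0.079 there, and the dim probe set of SLC39A9 passed the filter only through the treated arrays of TALL-1.

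SLC39A13 (225277_at) encodes ZIP13, a carrier of the Golgi apparatus and its vesicles whose loss causes a connective tissue disorder of the Ehlers-Danlos group. It was dim in all lines. In RPMI-8402 it rose from 4.07, 4.22 and 4.13 to 4.69, 5.15 and 4.97, without overlap, by 0.80 ± 0.19 (limma adjusted p = 0.00338). With the ACTB difference as a covariate that change was 0.50 and no longer called (limma adjusted p = 0.104). In TALL-1 DMSO replicate 1 was at 5.17, above the treated arrays (5.01, 4.79 and 4.68), and DMSO replicates 2 and 3 were below them at 4.13 and 4.42. The change of 0.25 ± 0.19 was not called there, but it was 0.55 and called without DMSO replicate 1 (limma adjusted p = 0.00899). SUPT11 and P12-ICHIKAWA stood at 0.0092 ± 0.19 and 0.16 ± 0.19. The difference among the 4 lines was not called (limma F test, adjusted p = 0.114).

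SLC39A1 (217778_at) and SLC39A3 (229677_at) encode ZIP1 and ZIP3, closely related zinc importers of the plasma membrane, and neither was called in any line. SLC39A1 lay between 6.55 and 7.39 on all arrays, with changes of 0.044 ± 0.078 in RPMI-8402, 0.11 ± 0.078 in SUPT11, -0.15 ± 0.078 in TALL-1 and 0.020 ± 0.078 in P12-ICHIKAWA. On 9 of the 24 arrays it had 1 and the same value, 6.93, equal to 4 decimals, among them all 3 treated arrays of P12-ICHIKAWA. A value shared by 4 or more arrays was found in 18% of all tested genes and in 0.727% of the 5503 with a mean of log2 10 or more. SLC39A13 had a value shared by 4 arrays, whereas the 8 other members shared none among more than 2. On the 9 arrays with the same value SLC39A1 thus shows no difference between arrays. SLC39A3 was between 2.30 and 4.90, reached log2 4 on 5 arrays, and had changes of -0.46 ± 0.28 in RPMI-8402, 0.060 ± 0.28 in SUPT11, -0.30 ± 0.28 in TALL-1 and 0.10 ± 0.28 in P12-ICHIKAWA.

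No member was at the array floor in any group by its brightest probe set, meaning all 3 arrays within 0.1 of the lowest value. SLC39A3 came nearest, at 2.30 on DMSO replicate 3 of TALL-1, while SLC39A4 went down to 3.55 on a treated array of TALL-1 and SLC39A13 to 3.53 on a DMSO array of P12-ICHIKAWA. Falls of such dim probe sets can be cut short by the floor. That measure would miss a probe set resting at a value of its own above the floor. SLC39A1 repeated 6.93 on 9 of the 24 arrays and SLC39A13 repeated 4.13 on 4. Whether these are background values was not tested, so neither gene is shown to be detected on those arrays. The ZIP genes SLC39A2, SLC39A5 and SLC39A12, which are no members here, were at the floor on all 24 arrays, with highest values of 2.18. Of the 16 further probe sets of the members 7 passed the filter and 9 did not.

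For the members that were not called in SUPT11 and P12-ICHIKAWA, the intervals limit what could have been missed. Over SLC39A1, SLC39A6, SLC39A8, SLC39A9, SLC39A10, SLC39A11 and SLC39A14 the 95% intervals of the change in those lines ran from -0.20 to 0.28 on the log2 scale. Over SLC39A3, SLC39A4 and SLC39A13 they ran from -0.67 to 0.69. The change differed among the 4 lines for 6 of 10 members (limma F test), where 35.8% of all tested genes did: SLC39A4, SLC39A8, SLC39A9, SLC39A10, SLC39A11 and SLC39A14.

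The lines differed in their ZIP genes before treatment. With DMSO all 10 members differed among the 4 lines (limma F test), as did 96.3% of all tested genes, so the count is near its background. Between pairs of lines 65% of all genes (P12-ICHIKAWA and RPMI-8402) to 79.7% (SUPT11 and RPMI-8402) differed, with 78.9% for TALL-1 and SUPT11, 77.4% for SUPT11 and P12-ICHIKAWA, 70.8% for TALL-1 and RPMI-8402 and 70.3% for TALL-1 and P12-ICHIKAWA. SLC39A4 had the widest range among the 10 members. It averaged 8.90 ± 0.24 (SD, n = 3) in SUPT11, 7.45 ± 0.097 in RPMI-8402, 7.28 ± 0.17 in P12-ICHIKAWA and 4.46 ± 0.60 in TALL-1. RPMI-8402 and P12-ICHIKAWA did not differ beyond their spread (difference 0.16 ± 0.21, limma adjusted p = 0.529), and the other neighbours in that order did (limma adjusted p = 3.52e-06 and 4.91e-10).

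SLC39A10 was high with DMSO in TALL-1 (11.83 ± 0.063) and P12-ICHIKAWA (11.77 ± 0.11), which did not differ beyond their spread, and lower in SUPT11 (10.95 ± 0.059) and RPMI-8402 (10.73 ± 0.074). SLC39A9 was highest in TALL-1 (14.30 ± 0.031), next in SUPT11 (14.15 ± 0.054), then in P12-ICHIKAWA (13.91 ± 0.048) and lowest in RPMI-8402 (13.28 ± 0.066), and all neighbours differed. SLC39A14 was lowest in TALL-1 (11.89 ± 0.13), with P12-ICHIKAWA (12.65 ± 0.042) and RPMI-8402 (12.62 ± 0.10) not told apart and SUPT11 highest (12.88 ± 0.022). SLC39A11 was lowest in TALL-1 (11.50 ± 0.076), followed by P12-ICHIKAWA (11.66 ± 0.038), SUPT11 (12.19 ± 0.057) and RPMI-8402 (12.30 ± 0.021), the last pair not differing (limma adjusted p = 0.0702). TALL-1 was thus at the low end for the genes SLC39A4, SLC39A11 and SLC39A14 and at the high end for SLC39A9.

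SLC39A8 stood highest with DMSO in TALL-1 (13.39 ± 0.042), above P12-ICHIKAWA (13.04 ± 0.097), RPMI-8402 (13.00 ± 0.12) and SUPT11 (12.94 ± 0.058), and the last 3 did not differ from each other. SLC39A6 ran from 13.13 ± 0.041 in P12-ICHIKAWA through 13.07 ± 0.050 in TALL-1 and 12.93 ± 0.11 in SUPT11 to 12.82 ± 0.11 in RPMI-8402. Of its neighbours only TALL-1 and SUPT11 differed (limma adjusted p = 0.0472). SLC39A1 was highest in TALL-1 (7.25 ± 0.12) and lowest in SUPT11 (6.71 ± 0.14), with RPMI-8402 (6.93 ± 0.039) and P12-ICHIKAWA (6.91 ± 0.035) not told apart between them. For the dim genes the neighbours were not told apart at any step: SLC39A3 ran from 4.32 ± 0.57 in RPMI-8402 through 3.80 ± 0.35 in P12-ICHIKAWA and 3.52 ± 0.13 in SUPT11 to 2.91 ± 0.52 in TALL-1. SLC39A13 ran from 4.57 ± 0.53 in TALL-1 through 4.14 ± 0.073 in RPMI-8402 and 3.99 ± 0.17 in SUPT11 to 3.78 ± 0.24 in P12-ICHIKAWA.

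Beside the 10 members, SLC39A7 rose by 1.77 ± 0.10 in TALL-1 and 1.32 ± 0.10 in RPMI-8402 and stood at 0.048 ± 0.10 in SUPT11 and -0.020 ± 0.10 in P12-ICHIKAWA. The zinc exporters of the SLC30 family had 6 tested genes of 10 listed, and SLC30A2, SLC30A3, SLC30A8 and SLC30A10 were at the floor. Of the 6, 5 rose in TALL-1, 4 rose in RPMI-8402, 1 fell in P12-ICHIKAWA and 0 were called in SUPT11. Over all tested genes 22.3% rose in TALL-1, 15.1% rose in RPMI-8402 and 2.98% fell in P12-ICHIKAWA. SLC30A7, which loads zinc into the secretory pathway, rose by 0.63 ± 0.065 in TALL-1 and 0.59 ± 0.065 in RPMI-8402. SLC30A1, the exporter of the plasma membrane and an MTF1 target, rose by 0.62 ± 0.057 and 0.57 ± 0.057 in those lines and fell by 0.37 ± 0.057 in P12-ICHIKAWA. SLC30A5, the partner of SLC30A6 in the early secretory pathway, rose by 0.62 ± 0.061 in TALL-1 and 0.31 ± 0.061 in RPMI-8402. SLC30A4, an exporter of vesicles, was called higher in TALL-1 close to the floor, from 2.34 to 2.79. With DMSO it stood at 11.35 in SUPT11 and 11.02 in RPMI-8402. The part of the foreign transcripts on treated replicate 2 of TALL-1 in that call was not tested.

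Of the metallothioneins and MTF1, 10 of 12 listed genes had a probe set of their own and 7 were tested. In TALL-1 1 of 7 fell (MT2A, from 10.47 to 10.02), where 19.6% of all tested genes fell. In RPMI-8402 1 of 7 fell (MT1G, from 8.85 to 8.35), where 21.5% did, and in P12-ICHIKAWA 1 of 7 fell (MT1X, from 10.76 to 10.44), where 2.98% did. None was called in SUPT11, and none rose in any line. MTF1 itself changed by -0.088 ± 0.096 in TALL-1 and -0.15 ± 0.096 in RPMI-8402 and was not called. The genes of the MT1 group are close in sequence, and their probe sets may share signal.

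**Figure D5:**
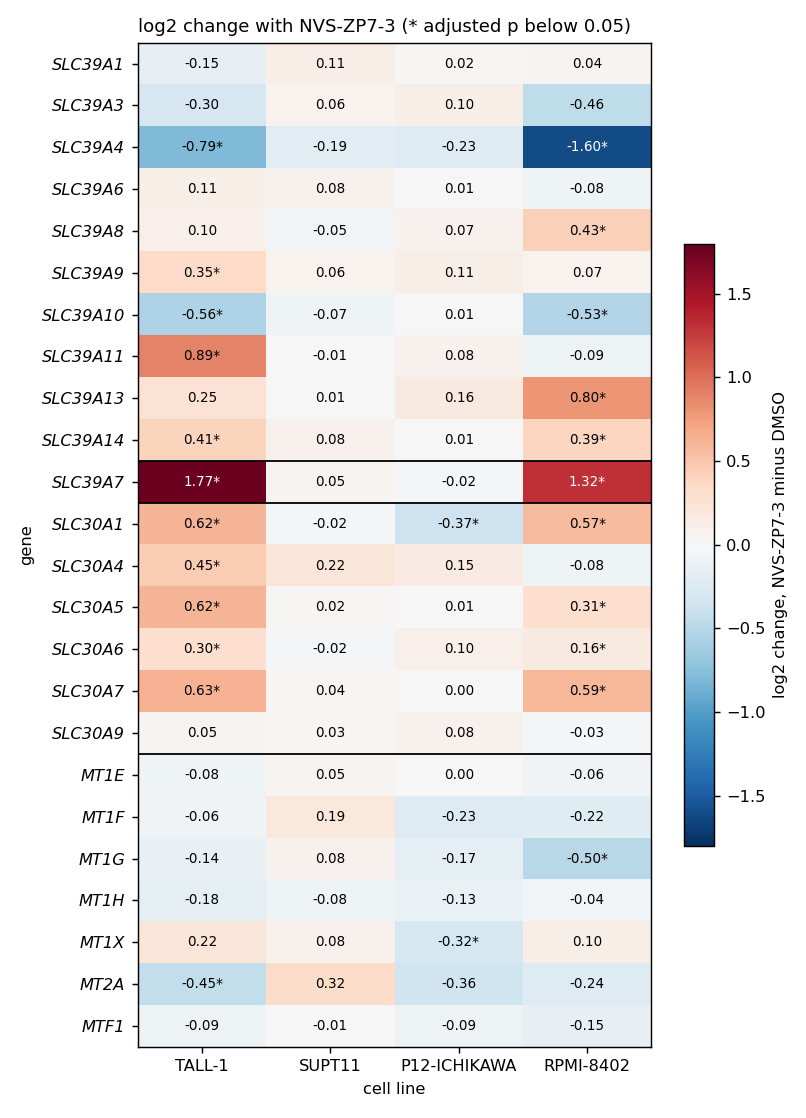
Log2 change, NVS-ZP7-3 minus DMSO, of the 10 SLC39 members, SLC39A7, the 6 tested SLC30 exporters and the 7 tested metallothionein genes including MTF1 (rows) in the 4 lines (columns); cells print the change, red is higher and blue lower, and an asterisk marks a limma adjusted p below 0.05. SLC39A10 and SLC39A4 carry the negative marks among the transporters in TALL-1 and RPMI-8402, while the marked SLC30 genes in these lines are positive.

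The members called in both TALL-1 and RPMI-8402 were set beside all tested genes at log2 6 or more in some group, by the Pearson correlation over the 24 arrays after the mean of each line was removed. The arrays of a line share its treatment contrast, so the correlation is a description. SLC39A10 was most like TNFRSF21, a death receptor (r = 0.95), whose change was -0.80 in TALL-1 and -0.62 in RPMI-8402 and stood at 0.018 in SUPT11 and -0.16 in P12-ICHIKAWA. The next was POLR1G, a subunit of RNA polymerase I (r = 0.95), with changes of -0.92 in TALL-1, -1.05 in RPMI-8402, -0.086 in SUPT11 and -0.12 in P12-ICHIKAWA. SLC39A14 was most like AACS, acetoacetyl-CoA synthetase (r = 0.96), with changes of 1.94 in TALL-1 and 1.46 in RPMI-8402, but also 0.55 in SUPT11 and 0.31 in P12-ICHIKAWA. The next was the Golgi matrix gene GOLGA2 (r = 0.95), at 1.16 in both TALL-1 and RPMI-8402, 0.092 in SUPT11 and 0.025 in P12-ICHIKAWA. SLC39A4 was most like FASTKD3, a mitochondrial RNA-binding protein (r = 0.93), with changes of -0.20 in TALL-1, -0.46 in RPMI-8402, -0.034 in SUPT11 and -0.080 in P12-ICHIKAWA. The next was WDR46 (r = 0.93), at -0.36, -0.77, -0.23 and -0.021 in the same order.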

How the data were processed

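The deposited table holds log2 expression of 54675 probe sets on 24 arrays. The submitters' processing notes name GCRMA, which subtracts background by probe sequence, normalizes between arrays and summarises probe sets, and limma, with neither version nor settings. The label protocol was Affymetrix 3' Plus. Gene names came from the platform's annotation, with symbols updated from RefSeq (GRCh38.p14): 41097 had 1 gene, 1801 several and 11777 none, and 41043 of the first matched. The brightest probe set by the mean of 24 arrays stood for a gene.

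All 24 arrays entered 1 model of the 8 groups in limma 3.58.1 (R 4.3.3) with 16 residual and 18.0 total degrees of freedom. Benjamini-Hochberg adjustment ran over 10661 genes, and an adjusted p below 0.05 was called. Groups of a dim gene share its spread with the lines where it is brighter. Arrays have no read depth, so their number limits the precision. The steps were tested on simulated arrays. All 10 members were named, and further zinc genes came from lists. The members and lists were chosen with earlier results of these data known.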

Additional observations from a re-analysis of the deposited data

Results flagged for a closer look

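The change with NVS-ZP7-3 differed among the 4 lines for 6 members by a limma F test of the interaction, adjusted over all tested genes. SLC39A11 had an adjusted p = 4.46e-08, with a rise of 0.89 in TALL-1 and changes of -0.014, 0.078 and -0.093 in SUPT11, P12-ICHIKAWA and RPMI-8402. SLC39A10 had an adjusted p = 3.57e-05 (limma), with falls in TALL-1 and RPMI-8402. SLC39A14 had an adjusted p = 0.00123 (limma) and rose in the same pair of lines. For SLC39A4 (adjusted p = 0.00274, limma) and SLC39A8 (adjusted p = 0.00279, limma) the change was farthest from the other lines in RPMI-8402, at -1.60 and 0.43. SLC39A9 had an adjusted p = 0.00893 (limma), with its highest change, 0.35, in TALL-1.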

How the results depend on the processing

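The counts of called members stayed within 1.5 times the reported count under all 241 alternatives run. Leaving out 1 array at a time gave 5 to 6 called members in TALL-1, 5 to 6 in RPMI-8402, 0 in the other lines, 7 on average and 6 to 7 for the difference among lines. The other settings were a filter at log2 6 or none, median centring, quantile normalization, an intensity trend, a gene's probe sets averaged, the ACTB difference or HBB as a covariate, a line alone and, chosen after seeing the data, leaving out the 3 arrays with foreign transcripts. The fit of TALL-1 alone called 4, since SLC39A4 did not pass its filter. SLC39A3 and SLC39A13 were not tested with the filter at log2 6 or with averaged probe sets. Of 615 alternatives for single members 0 reversed a called change, 3 lost a call and 3 gained one. Leave-one-out fits aside, 15 settings turned the sign of a change that was not called. Some leave-one-out fits did so too, as for SLC39A3 in P12-ICHIKAWA (0.10 to -0.19 without treated replicate 2). The calls of SLC39A8 (0.092) and SLC39A13 (0.086) on average over the lines were lost with the ACTB covariate (limma adjusted p = 0.155 and 0.657), and the mean of all probe sets moved the average of SLC39A8 from 0.14 to 0.074 and, with 2 probe sets near the floor, that of SLC39A14 from 0.22 to 0.084. With the replicate number as a block 5 members were called in TALL-1, 5 in RPMI-8402, 0 in SUPT11 and P12-ICHIKAWA and 7 on average; DMSO levels could not be fitted with it, and 3 of 12 same-numbered pairs correlated above 0.1, so the numbers were not taken to pair the arrays.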
